A study of Homo sapiens with 4 samples.

Results

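The epidermal growth factor receptor (EGFR) family was described here through 10 genes, taken by name from the 58825 genes of the deposited table: the ligands HBEGF, AREG, EREG and TGFA, the receptors EGFR, ERBB2 and ERBB3, and the feedback genes ERRFI1, DUSP6 and SPRY4. Each name matched 1 row. The 10 genes and the wider lists were chosen with earlier results of these data known. The samples were 4 RNA-seq libraries of HaCaT, an immortalised line of human keratinocytes that is neither a primary culture nor a tissue. The lnc-DC knockdown group (labelled shlnc-DC, 2 libraries) received lentivirus against the long noncoding RNA lnc-DC, and the control group (labelled shNC, 2 libraries) received a negative control lentivirus. All 4 were grown in the same medium with 1.2 mM calcium, a level that induces keratinocytes to differentiate, and the study asked how silencing lnc-DC changes the expression signature of such cells. The labels call the replicates biological. How many hairpins were used, and whether replicates were separate transductions, is not given in the sources used here, so a p-value here speaks only of the spread among 4 libraries.

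EGFR ligands are made as membrane-anchored precursors that metalloproteases of the ADAM family release. Once bound, EGFR pairs with itself or with ERBB2 or ERBB3 and signals through RAS, RAF, MEK and ERK, and ERK activity induces ligands as well as inhibitors that damp the pathway. In epidermis this loop runs within and between keratinocytes and is known for sustaining proliferation and migration.

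The table gave FPKM, fragments per kilobase of transcript scaled to library size, which allows levels to be compared between genes. lnc-DC, the transcript of WFDC21P, stood at 0.09 and 0.29 FPKM in the knockdown libraries, against 2.15 and 2.76 FPKM in the control libraries (limma adjusted p = 0.0715). Each library listed 22351 to 22780 genes above 0. Of 8 keratinocyte markers, 6 exceeded 1 FPKM in every library, among them KRT5 and TP63, while KRT14, the usual partner of KRT5, reached at most 0.35 FPKM and KRT17 at most 0.85 FPKM. The summed level of the 8 markers was 398 and 441 FPKM in the knockdown libraries, against 685 and 740 FPKM in the control libraries, and its part in the results below was not tested. KRT5 and SFN made up most of that difference, TP63, DSP and PERP overlapped between groups, and PERP had the higher mean in the knockdown libraries. The sums over the melanocyte and fibroblast markers stayed at or below 0.68 FPKM, PTPRC was listed at 0 in every library, and PECAM1 reached at most 0.01 FPKM. CDH5, a marker of endothelial cells, stood at 3.88 and 6.42 FPKM in the knockdown libraries and 4.51 and 3.52 FPKM in the control libraries. CD68, a marker of macrophages, stood at 12.9 and 12.4 FPKM in the knockdown libraries and 10.25 and 12.16 FPKM in the control libraries. Mitochondrially encoded transcripts took 28.1% and 26.8% of summed FPKM in the knockdown libraries, against 41.2% and 41.9% in the control libraries, so values were also rescaled to nuclear-encoded FPKM. In bulk RNA a difference in every cell and a difference in the share of cells that express a gene cannot be told apart.

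The promoters of the 3 ligands with the largest folds are shown because their genes stood higher together in the knockdown libraries. Each is the 250 bases before the transcription start in RefSeq (GRCh38.p14), printed along the gene's own strand, with capitals marking matches to the motifs searched on both strands. HBEGF lies at chr5:140346604-140346853 on the minus strand, AREG at chr4:74444886-74445135 and EREG at chr4:74364895-74365144, both on the plus strand.
HBEGF: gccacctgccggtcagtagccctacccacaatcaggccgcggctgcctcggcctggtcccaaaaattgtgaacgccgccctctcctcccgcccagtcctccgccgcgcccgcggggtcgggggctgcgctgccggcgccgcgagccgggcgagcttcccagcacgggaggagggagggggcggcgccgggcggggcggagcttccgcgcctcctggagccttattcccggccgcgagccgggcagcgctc
AREG: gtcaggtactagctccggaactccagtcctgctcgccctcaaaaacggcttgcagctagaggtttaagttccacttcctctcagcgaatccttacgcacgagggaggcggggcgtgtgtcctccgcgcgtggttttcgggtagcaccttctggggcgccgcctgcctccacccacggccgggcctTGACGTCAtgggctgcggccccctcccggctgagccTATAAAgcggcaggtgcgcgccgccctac
EREG: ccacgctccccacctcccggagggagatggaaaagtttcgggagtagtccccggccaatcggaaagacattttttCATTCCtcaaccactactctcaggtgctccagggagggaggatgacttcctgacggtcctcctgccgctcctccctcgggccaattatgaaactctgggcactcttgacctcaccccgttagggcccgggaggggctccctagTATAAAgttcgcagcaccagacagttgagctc

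The motifs were AP-1 (TGANTCA), CRE (TGACGTCA), TEAD (GGAATG), ETS (CCGGAAG), the TATA box (TATAAA) and the CArG box of serum response factor. AREG held a CRE starting 65 bases before the start and a TATA box at 29 bases. EREG held a TATA box at 32 bases and a TEAD motif, read on the opposite strand, at 175 bases. None of the 6 motifs was found in the HBEGF window, which says only that these letters are not there. Among 35116 promoters of the same length, 1.65% held the CRE, 10.7% the TATA box, 11.9% the TEAD motif, 6.57% AP-1, 8.52% ETS and 1.16% the CArG box. Of the 10 genes 9 had a promoter in the table, and ERBB3 did not. The CRE does not overlap any of the other motifs in AREG, and a match is a description of sequence, not of binding. Among the 11 promoters of these 9 genes, AP-1 matches lay in ERBB2 and in 1 promoter of EGFR, and ETS matches lay in ERBB2. That promoter of EGFR also held TATA boxes at 146 and 36 bases and a TEAD match at 114 bases. The motifs were not found in the promoters of TGFA, ERRFI1, SPRY4 or DUSP6, nor in the other promoter of EGFR.

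All 4 ligands had both knockdown values above both control values, as did 35.6% of all tested genes. EREG, 1 of the 4, was not tested. HBEGF, the heparin-binding ligand of EGFR and ERBB4, stood at 6.70 and 6.57 FPKM in the knockdown libraries, against 2.85 and 2.48 FPKM in the control libraries. The knockdown libraries differed from each other by far less than from the control libraries, and the mean was 2.49-fold higher (log2 fold change 1.06, 95% interval 0.74 to 1.38, limma adjusted p = 0.0655). HBEGF had the 127th highest log2 fold change of 12411 tested genes. Rescaled to nuclear-encoded FPKM, its log2 fold change was 1.03. The threshold of 0.05 was missed, also under all 12 alternative settings that gave HBEGF a value, where the adjusted p lay between 0.0541 and 0.255. HBEGF (ENSG00000113070) lies on the minus strand of chromosome 5, from 140332843 to 140346631 (GRCh38, GENCODE 29).

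AREG, amphiregulin, an autocrine growth factor of keratinocytes, had 4.82 and 4.24 FPKM in the knockdown libraries, against 1.96 and 1.97 FPKM in the control libraries. The control values were almost identical and the groups did not overlap. The mean was 2.31-fold higher in the knockdown (log2 fold change 0.90, 95% interval 0.56 to 1.23, limma adjusted p = 0.0747, range 0.0649 to 0.265 over 12 alternatives). Its log2 fold change ranked 226th from the highest, and was 0.87 after rescaling to nuclear-encoded FPKM. AREG has the gene identifier ENSG00000109321.

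EREG, epiregulin, a low-affinity ligand of EGFR and ERBB4, was the scarcest of the 10 genes in both groups. It stood at 0.91 and 1.04 FPKM in the knockdown libraries, against 0.26 and 0.20 FPKM in the control libraries, a 4.24-fold higher mean. Both groups averaged under 1 FPKM, so EREG (ENSG00000124882) did not enter the test. In a fit without that filter the log2 fold change of FPKM + 1 was 0.68 (95% interval 0.35 to 1.02, limma adjusted p = 0.199), a scale that understates the change of so low a gene.

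TGFA, transforming growth factor alpha, was the most abundant ligand in every library. It had 13.7 and 11.87 FPKM in the knockdown libraries, against 9.52 and 9.02 FPKM in the control libraries. The groups were apart, but the fold was the smallest of the ligands, at 1.38 (log2 fold change 0.42, 95% interval 0.10 to 0.74, limma adjusted p = 0.150). Its log2 fold change was 0.31 under quantile normalization, 0.33 without knockdown replicate 1 and 0.52 without knockdown replicate 2. TGFA (ENSG00000163235) lies on the minus strand of chromosome 2, from 70447280 to 70554193.

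**Figure D1:**
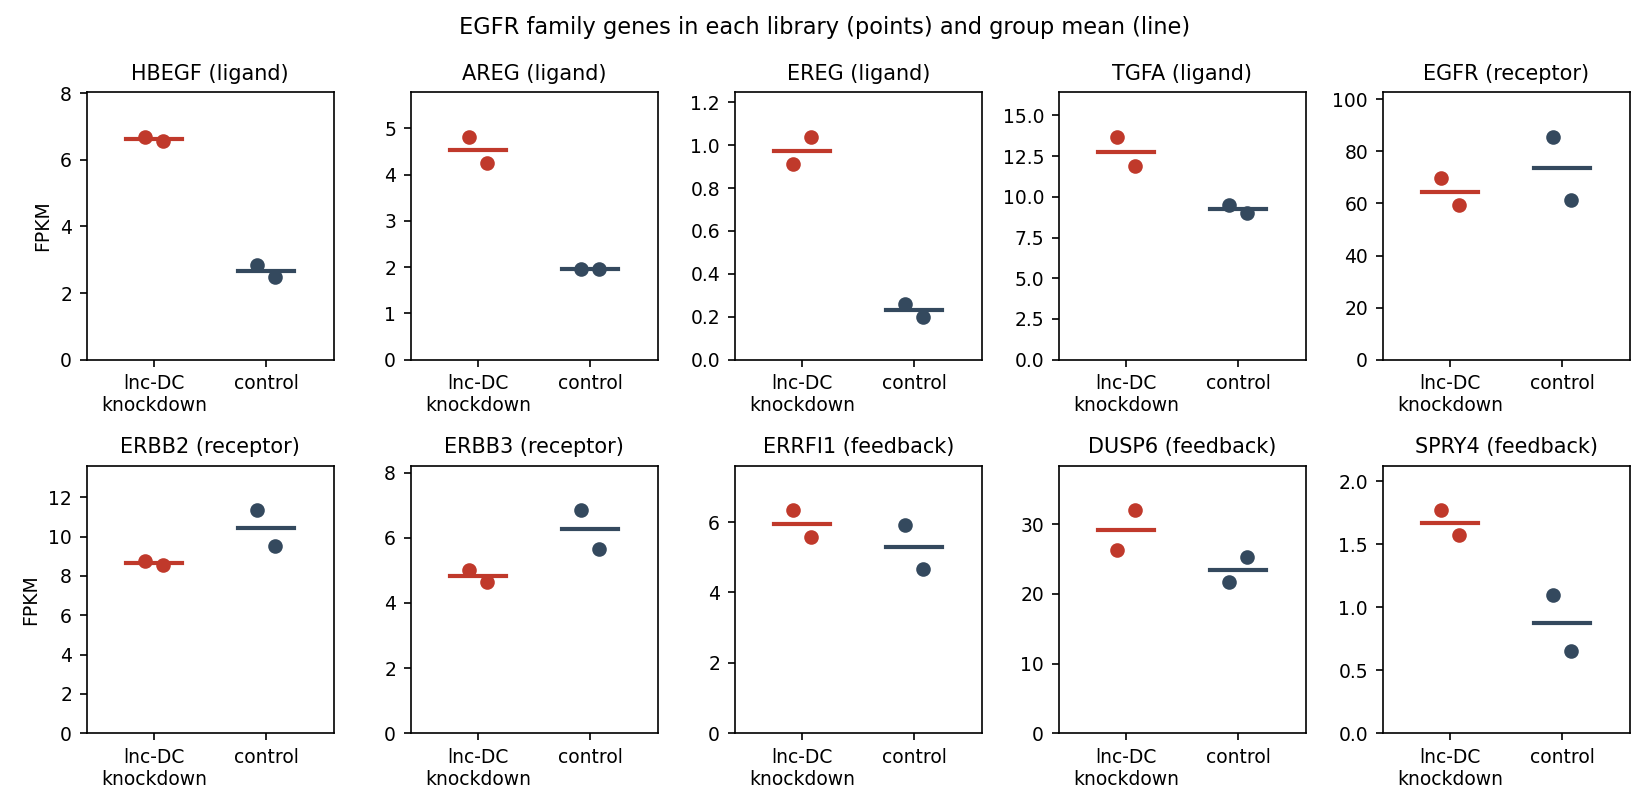
FPKM (y axis, linear, from 0) of each of the 10 genes in every library, with the 2 lnc-DC knockdown libraries (red) left of the 2 control libraries (dark) and a line at the group mean. The ligands and SPRY4 show separate groups with the knockdown above, DUSP6 does so narrowly (26.23 against at most 25.29 FPKM), and EGFR and ERRFI1 overlap.

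Summed over the 4 ligands, the level was 26.1 and 23.7 FPKM in the knockdown libraries, against 14.6 and 13.7 FPKM in the control libraries, a 1.76-fold higher mean. TGFA made up 52.4% and 50.0% of that sum in the knockdown libraries, against 65.3% and 66.0% in the control libraries. HBEGF made up 25.6% and 27.7% in the knockdown libraries and 19.5% and 18.1% in the control libraries, and AREG 18.5% and 17.9% in the knockdown libraries and 13.4% and 14.4% in the control libraries. The ligand pool of the knockdown libraries thus held relatively less TGFA, and a single scaling factor per library cannot move these shares.

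AREG and EREG are neighbours on the plus strand of chromosome 4, within a run of 4 ligand genes that spans 486214 bases from EPGN to BTC (74308473 to 74794686, GRCh38, GENCODE 29). EREG lies from 74365143 to 74388751 and AREG from 74445134 to 74455009. The outer genes of the run, EPGN and BTC, were below the filter. EPGN, epigen, was listed at 0.16 and 0.33 FPKM in the knockdown libraries and at 0 in both control libraries. BTC, betacellulin, had 0.81 and 0.74 FPKM in the knockdown libraries, against 0.72 and 0.79 FPKM in the control libraries, with overlapping groups. The other 2 genes annotated within the run, both noncoding and antisense to it, were listed at 0 in all 4 libraries.

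None of the 3 receptors had a higher mean in the knockdown libraries. EGFR, the main receptor of these ligands, had 69.87 and 59.22 FPKM in the knockdown libraries, against 85.66 and 61.35 FPKM in the control libraries. Replicate 1 exceeded replicate 2 in both groups and the groups overlapped. The log2 fold change was -0.17 with a 95% interval of -0.69 to 0.35 (limma adjusted p = 0.640), and without control replicate 1 it turned to 0.07. EGFR (ENSG00000146648) lies on the plus strand of chromosome 7, from 55019021 to 55211628.

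ERBB2, which binds no ligand and serves as a pairing partner, stood at 8.77 and 8.56 FPKM in the knockdown libraries, against 11.35 and 9.50 FPKM in the control libraries. ERBB3, a neuregulin receptor with little kinase activity, stood at 5.00 and 4.65 FPKM in the knockdown libraries, against 6.85 and 5.67 FPKM in the control libraries. Both knockdown values lay below both control values for each gene, as for 19.2% of all tested genes, and control replicate 2 lay near them. The log2 fold changes were -0.24 for ERBB2 (95% interval -0.57 to 0.10, limma adjusted p = 0.342) and -0.31 for ERBB3 (95% interval -0.67 to 0.04, limma adjusted p = 0.255). Without control replicate 1 they were -0.12 for ERBB2 and -0.20 for ERBB3. ERBB4, the remaining receptor of the family, did not exceed 0.11 FPKM in any library. ERBB2 (ENSG00000141736) lies on the plus strand of chromosome 17, from 39687914 to 39730426, and ERBB3 (ENSG00000065361) on the plus strand of chromosome 12, from 56076799 to 56103505.

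EGFR made up 83.5% and 81.8% of the summed FPKM of EGFR, ERBB2 and ERBB3 in the knockdown libraries, against 82.5% and 80.2% in the control libraries, with overlapping groups. The share of ERBB2 overlapped as well, while that of ERBB3 was 5.98% and 6.42% in the knockdown libraries, against 6.60% and 7.41% in the control libraries. Relative to EGFR in the same library, which a single scaling factor per library cannot move either, HBEGF stood at 9.59 and 11.1 FPKM per 100 FPKM of EGFR in the knockdown libraries, against 3.33 and 4.04 in the control libraries. AREG stood at 6.90 and 7.16 per 100 FPKM of EGFR in the knockdown libraries, against 2.29 and 3.21 in the control libraries. TGFA stood at 19.6 and 20.0 in the knockdown libraries, against 11.1 and 14.7 in the control libraries. The ligand sum per 100 FPKM of EGFR averaged 38.7 ± 1.88 in the knockdown libraries and 19.7 ± 3.71 in the control libraries (SD, n = 2 each).

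**Figure D2:**
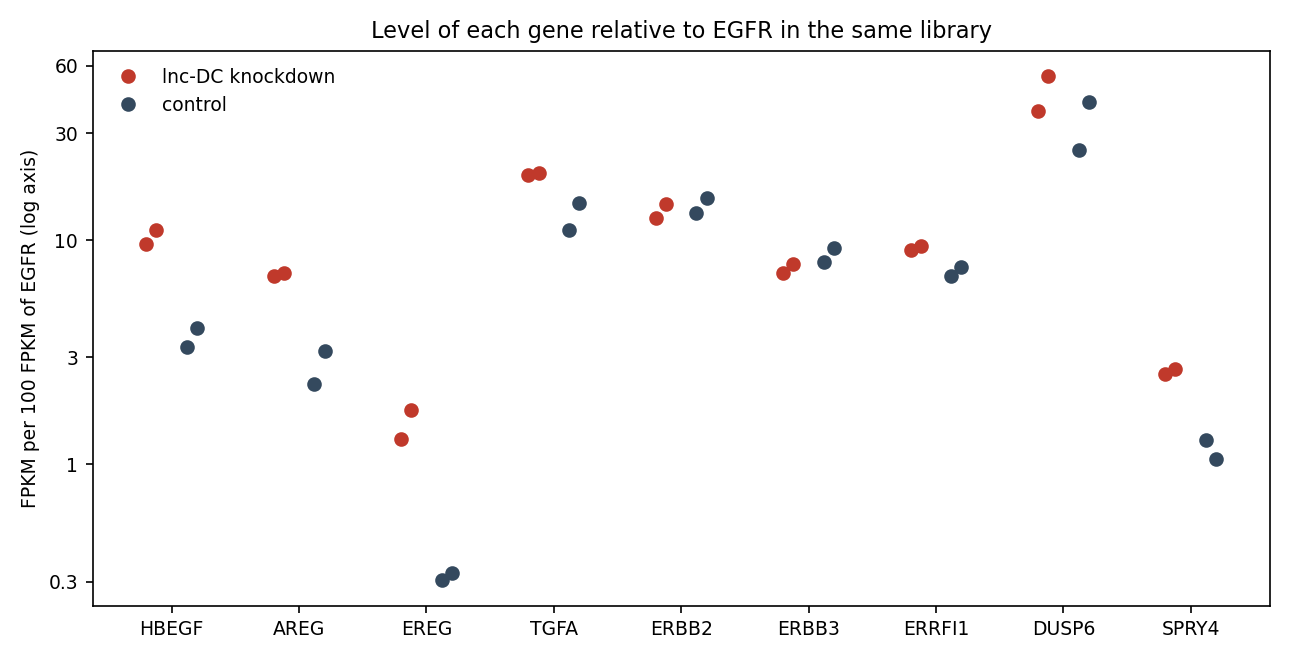
FPKM of each gene per 100 FPKM of EGFR in the same library (y axis, log scale), with knockdown libraries (red) left of control libraries (dark). The 4 ligands, ERRFI1 and SPRY4 lie higher in both knockdown libraries, ERBB3 lies lower in both, and ERBB2 and DUSP6 overlap. ERRFI1 overlapped in FPKM itself, and EGFR, the divisor, had a lower mean in the knockdown libraries. The share of all genes that lie apart on this ratio was not computed.

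The feedback genes differed less than HBEGF and AREG. SPRY4, a Sprouty inhibitor of RAS and ERK signalling, had 1.77 and 1.57 FPKM in the knockdown libraries, against 1.10 and 0.65 FPKM in the control libraries. Its groups were apart, with a 1.91-fold higher mean in the knockdown (log2 fold change 0.52, 95% interval 0.03 to 1.01, limma adjusted p = 0.200). The control mean of 0.875 FPKM was under the filter, so SPRY4 was tested only because of its knockdown values. Without the filter its 95% interval was -0.04 to 1.08, and after rescaling to nuclear-encoded FPKM it was -0.03 to 1.02. The interval lay above 0 under median centring and quantile normalization. DUSP6, the phosphatase that switches off ERK, had 26.23 and 32.02 FPKM in the knockdown libraries, against 21.66 and 25.29 FPKM in the control libraries. Its lowest knockdown value lay just above its highest control value, and the groups overlapped once libraries were centred on their median or quantile normalized (log2 fold change 0.30, 95% interval -0.10 to 0.69, limma adjusted p = 0.318). Its log2 fold change was 0.16 without knockdown replicate 2 and 0.19 without control replicate 1, and that of SPRY4 was 0.35 without control replicate 2. ERRFI1, which codes for MIG6, a protein that binds EGFR and blocks its kinase, had 6.34 and 5.57 FPKM in the knockdown libraries, against 5.91 and 4.67 FPKM in the control libraries. These values overlapped, and the log2 fold change was 0.15 (95% interval -0.25 to 0.55, limma adjusted p = 0.586), or 0.01 without control replicate 2, 0.07 without knockdown replicate 1, 0.23 without knockdown replicate 2 and 0.29 without control replicate 1. SPRY4 (ENSG00000187678) lies on chromosome 5, from 142310427 to 142326455, DUSP6 (ENSG00000139318) on chromosome 12, from 89347232 to 89353271, and ERRFI1 (ENSG00000116285) on chromosome 1, from 8004404 to 8026308, all on the minus strand.

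**Figure D3:**
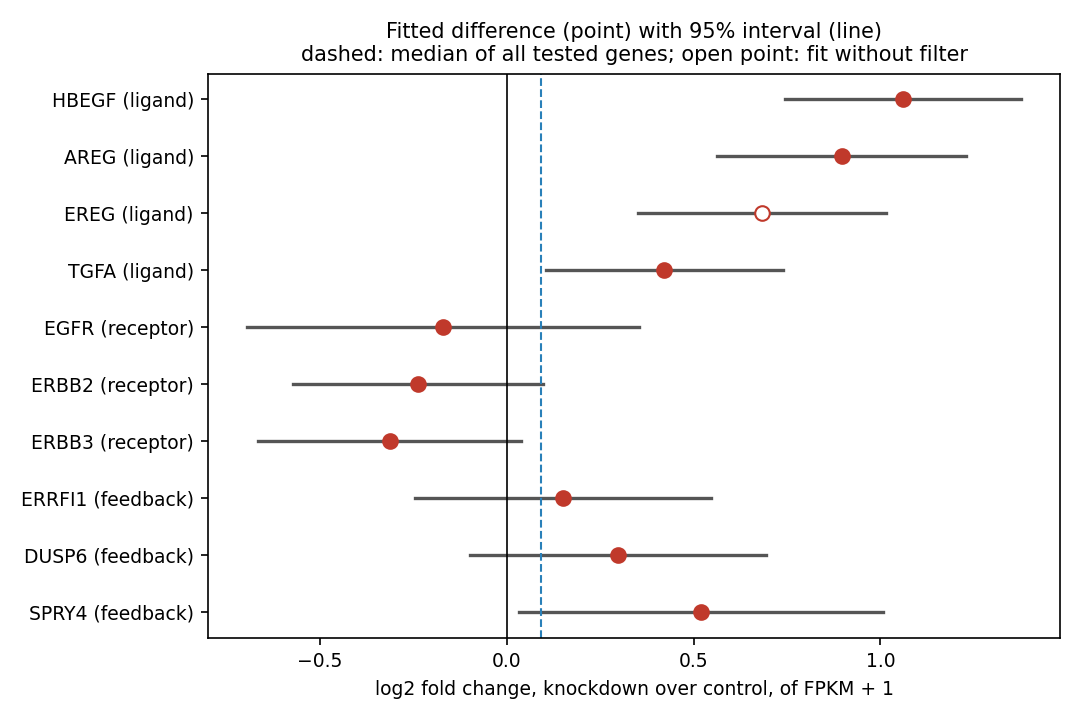
Fitted log2 fold change of FPKM + 1, knockdown over control (x axis), for each gene, with its 95% interval as a line. The intervals of HBEGF, AREG, TGFA, SPRY4 and EREG (open point, fitted without the filter) lie above 0, and those of the 3 receptors, ERRFI1 and DUSP6 include 0. SPRY4 is shown from the filtered fit, and without the filter its interval includes 0 (-0.04 to 1.08). The dashed line marks the median of all tested genes, 0.09.

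None of the 9 tested genes passed an adjusted p of 0.05, and 0.250% of the 12411 tested genes did (31 genes). The unadjusted p of limma was under 0.05 for HBEGF (0.000433), AREG (0.00114) and TGFA (0.0194), each higher in the knockdown, and for none of the 9 in the lower direction. SPRY4 also had such a p (0.0410), but is not counted with them, since its knockdown values alone brought it into the test. Under median centring ERBB2 (0.0441) and ERBB3 (0.0188) had an unadjusted p of limma under 0.05 in the lower direction, likewise under quantile normalization (0.0335 for ERBB2 and 0.0185 for ERBB3), and ERBB3 did so with a replicate block (0.0410). With that block DUSP6 had an unadjusted p of limma under 0.05 in the higher direction (0.0246). Over all tested genes 14.8% had such a p in the higher direction and 8.00% in the lower. Knockdown values lay wholly above control values for 6 of the 10 genes and wholly below for 2, where 35.6% and 19.2% of all tested genes did so. These counts include EREG, which was not tested, and SPRY4, which entered the test only through its knockdown values. The counts were not tested against that background. The 10 genes were chosen with earlier results of these data known, so these shares are no blind comparison.

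In order of mean level, EGFR came first and DUSP6 second in both groups. In the knockdown libraries TGFA, ERBB2, HBEGF, ERRFI1, ERBB3, AREG, SPRY4 and EREG followed, with means of 12.8, 8.67, 6.64, 5.96, 4.83, 4.53, 1.67 and 0.975 FPKM, and ERBB3 and AREG overlapped. In the control libraries ERBB2, TGFA, ERBB3, ERRFI1, HBEGF, AREG, SPRY4 and EREG followed, with means of 10.4, 9.27, 6.26, 5.29, 2.67, 1.97, 0.875 and 0.230 FPKM, and the neighbours ERBB2 and TGFA, and ERBB3 and ERRFI1, overlapped. HBEGF thus stood above ERRFI1 and ERBB3 in the knockdown libraries and below both in the control libraries.

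The tested genes of ligand release all had a lower fitted level in the knockdown. The list held ADAM proteases, the iRhom cofactors and the inhibitor TIMP3, and 6 of its 7 genes were tested, all with a log2 fold change below 0 and a median of -0.46, against 0.09 over all tested genes. Over all tested genes, 4794 of 12411 lay below 0. This list and those below were chosen with earlier results of these data known. None of the list passed the threshold, and 4 had an unadjusted p under 0.05, which 8.00% of all tested genes had in that direction. TIMP3, an inhibitor of ADAM proteases, had 14.56 and 15.99 FPKM in the knockdown libraries, against 25.35 and 26.04 FPKM in the control libraries (log2 fold change -0.72, SE 0.11, limma adjusted p = 0.0782). ADAM10, a protease that releases several EGFR ligands, had 9.83 and 7.79 FPKM in the knockdown libraries, against 16.5 and 12.75 FPKM in the control libraries (limma adjusted p = 0.141). RHBDF1, the iRhom1 cofactor of ADAM17, had 2.99 and 2.15 FPKM in the knockdown libraries, against 5.01 and 3.80 FPKM in the control libraries, and ADAM9 had 20.52 and 21.87 FPKM in the knockdown libraries, against 28.63 and 25.2 FPKM in the control libraries. Of the 6 tested genes these 4 had knockdown values wholly below control values and 2 overlapped, where 19.2% of all tested genes lay wholly below. The 4 were named for the smallest p in the list, so their separation is partly a product of that choice. ADAM17, the main protease for HBEGF, AREG and TGFA, had 4.16 and 5.08 FPKM in the knockdown libraries, against 5.50 and 4.32 FPKM in the control libraries, and its groups overlapped (log2 fold change -0.07, 95% interval -0.50 to 0.36). ADAM17 is outside the rule for named genes and was added for its role after its values were seen.

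Most other genes of receptor turnover and feedback had a higher fitted level. Of 19 genes 17 were tested, 14 of them above 0 and 3 below, with a median log2 fold change of 0.35, and none passed the threshold. Over all tested genes, 7617 of 12411 lay above 0. The unadjusted p was under 0.05 for 7 of the list, all higher, where 14.8% of all tested genes had such a p in that direction. DUSP10, a phosphatase of p38 and JNK, had 20.59 and 16.56 FPKM in the knockdown libraries, against 11.9 and 10.82 FPKM in the control libraries (limma adjusted p = 0.113). DUSP4, a nuclear ERK phosphatase, had 3.00 and 2.62 FPKM in the knockdown libraries, against 1.65 and 1.29 FPKM in the control libraries (limma adjusted p = 0.121). PTPN1, a phosphatase that acts on EGFR, averaged 1.32-fold higher and USP8, a deubiquitinase of endocytosed EGFR, 1.35-fold higher in the knockdown, with groups that did not overlap. Of the 17 tested genes 9 lay wholly above, 1 wholly below and 7 overlapped. Over all tested genes 35.6% lay wholly above and 19.2% wholly below. Within the list, a DUSP family member also stood lower: DUSP5 had 22.93 and 21.75 FPKM in the knockdown libraries, against 27.08 and 26.13 FPKM in the control libraries. SPRY2, a close relative of SPRY4, overlapped between groups (log2 fold change -0.05, 95% interval -0.36 to 0.25). DUSP5 and SPRY2 were picked after their values were seen.

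The adaptors and kinases between receptor and ERK were divided. Of 22 genes 21 were tested, 11 above 0 and 10 below, with a median log2 fold change of 0.02, and none passed the threshold. Over all tested genes, 7617 of 12411 lay above 0, with a median of 0.09. MAPK3, which codes for ERK1, had 9.11 and 9.07 FPKM in the knockdown libraries, against 13.6 and 12.71 FPKM in the control libraries (log2 fold change -0.49, 95% interval -0.76 to -0.21, limma adjusted p = 0.111). Its groups did not overlap. Of the 21 tested genes 7 lay wholly above, 3 wholly below and 11 overlapped, where 35.6% and 19.2% of all tested genes lay wholly above and below. NRAS, a RAS GTPase, averaged 1.53-fold higher and MAP2K1, which codes for MEK1, 1.19-fold higher in the knockdown.

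Of 17 immediate early and ERK output genes 12 were tested, 9 above 0 and 3 below. The median log2 fold change was 0.21, and none passed the threshold. Over all tested genes, 7617 of 12411 lay above 0, with a median of 0.09. The unadjusted p of limma was under 0.05 for 2 of the list in the higher direction and 1 in the lower. Over all tested genes these shares were 14.8% and 8.00%. FOSL1, an AP-1 subunit stabilised and induced by ERK, had 35.84 and 25.47 FPKM in the knockdown libraries, against 9.14 and 19.19 FPKM in the control libraries (limma adjusted p = 0.181). Its control values lay far apart, yet both were below the knockdown values. ETV5, an ETS factor induced by ERK, had 10.4 and 7.68 FPKM in the knockdown libraries, against 5.49 and 4.76 FPKM in the control libraries (limma adjusted p = 0.124). JUN averaged 1.27-fold higher. CCND1, which codes for cyclin D1, lay on the other side, at 89.31 and 74.82 FPKM in the knockdown libraries, against 126.27 and 114.71 FPKM in the control libraries (log2 fold change -0.55, 95% interval -0.92 to -0.19, limma adjusted p = 0.126). Of the other ligands, only NRG1, a ligand of ERBB3 and ERBB4, was tested, and its log2 fold change was 0.18 (95% interval -0.21 to 0.58). NRG4 and BTC stayed under 1 FPKM, EGF and NRG2 did not exceed 0.13 FPKM, and NRG3 was listed at 0. These ligands, EPGN and ERBB4 were not tested and are named only to complete the family.

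**Figure D4:**
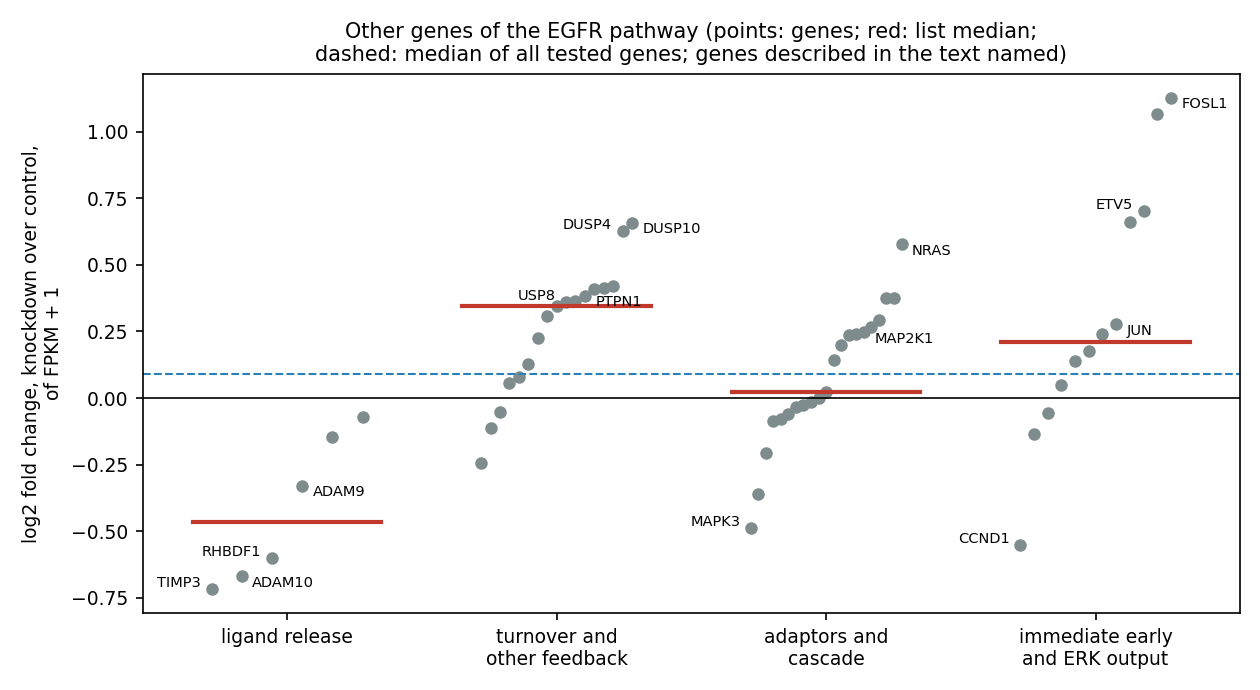
Log2 fold change of FPKM + 1, knockdown over control (y axis), of each tested gene in 4 lists of the pathway, with the list median in red and the median of all tested genes, 0.09, dashed. Ligand release lies wholly below 0 with a median of -0.46, turnover and other feedback has a median of 0.35, and the cascade spreads around 0.

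Libraries were made with strand marking, but the strand setting of the counting is not given, so values of overlapping genes are uncertain. In GENCODE 29, exons of EGFR, ERBB2, ERRFI1 and DUSP6 overlap exons of a gene on the opposite strand. For ERBB2 these are PGAP3, at 2.57 and 2.71 FPKM in the knockdown libraries and 5.11 and 4.26 FPKM in the control libraries, and MIEN1, at 8.09 and 8.01 FPKM in the knockdown libraries and 5.84 and 8.73 FPKM in the control libraries. Both knockdown values of PGAP3, like those of ERBB2, lay below both control values, and its part in the ERBB2 values was not tested. The antisense gene that overlaps EGFR reached at most 0.23 FPKM, that of ERRFI1 at most 0.11 FPKM and that of DUSP6 at most 3.33 FPKM. The only same-strand overlap among the 10 genes, of ERBB3 with AC034102.2, was with a gene listed at 0 in all libraries. HBEGF, AREG, EREG, TGFA and SPRY4 shared no exon with another gene.

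**Figure D5:**
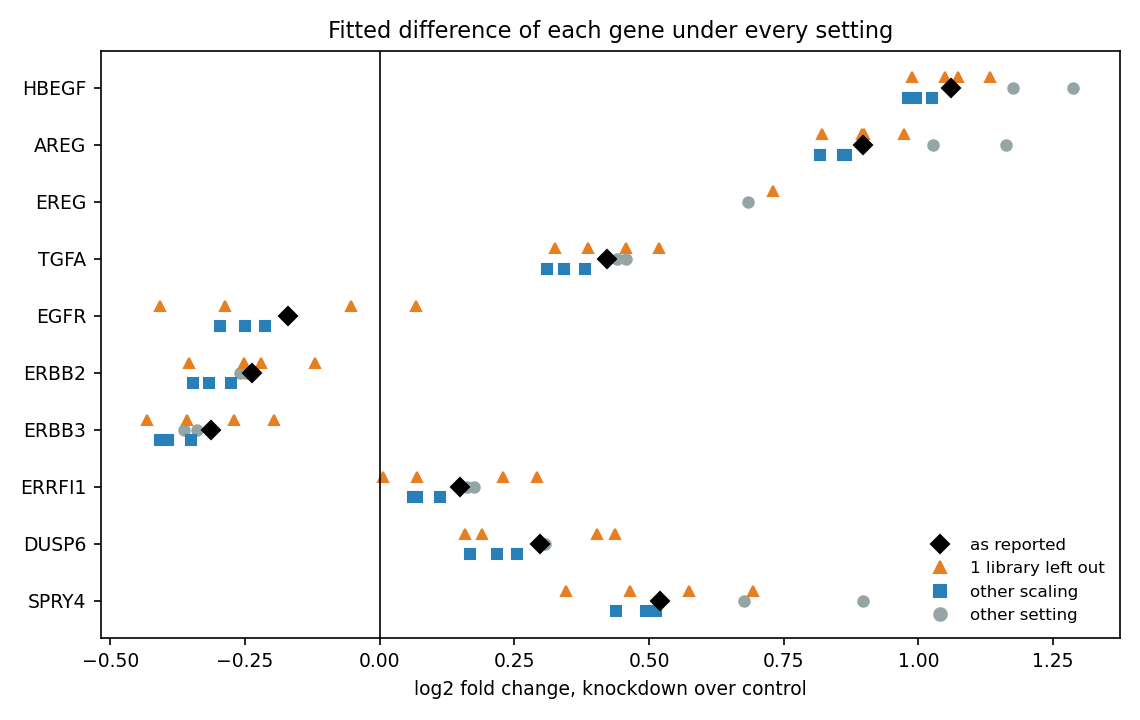
Log2 fold change of each gene, knockdown over control (x axis), as reported (black diamond), with 1 library left out (orange triangles), under another scaling (blue squares) and under other settings (grey circles). HBEGF, AREG and TGFA stay above 0 and ERBB2 and ERBB3 below 0 in every setting that gave a value. EGFR crosses 0 without control replicate 1, and ERRFI1 reaches 0.01. EREG has only 2 values, both above 0. It entered the fit without knockdown replicate 1 through its knockdown value alone, so that sign was favoured by the filter.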

How the data were processed

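Messenger RNA was selected with oligo(dT) beads and libraries that mark strand with dUTP were sequenced as paired reads, per the labels' protocols. The tools named, without roles, per the submitters' processing notes were StringTie 1.3.4d, HISAT2 2.0.4, edgeR, DESeq2 and cutadapt 1.9. For genome build, annotation and strand setting: not given in the sources used here. The authors deposited FPKM per gene and library, with 2 decimals, and a fold (ratio) of group means with its log2, which were not used here. Of 58825 gene IDs, 58552 matched GENCODE 29, used for positions. There were 0 FPKM columns without a sample.

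The 12411 genes whose knockdown or control mean reached 1 FPKM were fitted as log2(FPKM + 1) with limma 3.58.1 in R 4.3.3 (trend, two-sided, 2 residual degrees of freedom, Benjamini-Hochberg over all tested genes, threshold 0.05). The script was tested on simulated data. An exact permutation test of 2 against 2 libraries cannot go below p = 0.333, so p-values rest on pooling of spread across genes. Totals of reads were not part of the table: FPKM times length came within 0.1 of whole reads for at most 36.8% of low values, so counts were not recovered and depth is unknown.

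The 10 genes and the lists were chosen with earlier results of these data known. Named genes are the 10, WFDC21P and up to 4 genes with the smallest p in each list; untested family members, marker genes and genes with overlapping exons are named for context, any others are marked where they appear, and a gene the rule names in the cascade list is not reported here. Alternatives were 2 smaller pseudocounts, 2 filters, 3 scalings, leaving out each library, a replicate block and no trend. Motif searches used RefSeq promoters.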

Additional observations from a re-analysis of the deposited data

How the results depend on the processing

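None of the 10 genes and none of the wider pathway genes passed an adjusted p of 0.05 in limma under any of the 13 alternatives. Over all tested genes the count of 31 became 0 without a filter, 56 with the stricter filter (mean of at least 5 FPKM), 57 under quantile normalization and 17 with no trend. It was 0 in each fit that left out 1 library, where 1797 to 2251 genes had an unadjusted p under 0.05, so these fits say little about single genes. Of 115 alternative values of the 10 genes, 114 kept their sign and their side of the threshold. They include values of EREG and SPRY4 from fits that these genes entered through their knockdown values alone, where the filter favoured a sign above 0. EGFR turned to 0.0673 without control replicate 1 and reached -0.408 without control replicate 2.

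With the replicate number as a block, 0 genes passed, with 1 fewer degree of freedom. The unadjusted p of limma was then under 0.05 for 3791 genes, against 2827 without the block. The deviations of same-numbered libraries of the 2 groups were correlated across 12411 genes (Pearson r 0.124, Spearman rho 0.351), with 2 pairs. Nothing in the labels says that a number marks a shared culture or day. Over the settings, the median fold change (log2) across tested genes lay between 0.01 and 0.13. EREG entered only the fits without a filter and without knockdown replicate 1, HBEGF, AREG and SPRY4 had no value under the stricter filter, and unknown depth limits what EREG and EPGN can show.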

Other observations

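MYC, a growth regulator induced by ERK, differed widely between replicates. It had 11.62 and 28.26 FPKM in knockdown cells, against 34.31 and 1.38 FPKM in control cells, and its log2 fold change of 1.07 had a 95% interval of -2.43 to 4.57. It was picked after its values were seen. FOS and FOSB, immediate early AP-1 genes that were not tested and were likewise picked after their values were seen, stayed under 1 FPKM, with FOS at 0.49 and 0.42 FPKM in the knockdown libraries and 0.96 and 0.92 FPKM in the control libraries, the opposite side from FOSL1. For 8 of the 10 EGFR family genes replicate 1 exceeded replicate 2 in the knockdown libraries, and for 8 in the control libraries. The share of all tested genes that did so was not computed, so these counts say nothing particular to the family.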
